A study of Homo sapiens with 4 samples.

Results

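The regions described here are 6 sites of strong ATF3 signal that were listed only under cystine restriction, with everything listed around them, and each is called by the gene named for it, SH3BGR, UNC5B, MYH4, P2RX7, TREM1 or KIF13B. The members are all merged regions within 50 kb of these 6 spans, 20 of 44826 regions in the series: 2 in the SH3BGR window, 2 at UNC5B, 4 at MYH4, 8 at P2RX7, 3 at TREM1 and 1 at KIF13B. ATF3 was mapped by CUT&Tag, in which an antibody (here against ATF3) guides a transposase to chromatin, in SW480 cells, an established colorectal cancer line. One set of cells was kept for 24 h in cystine-restricted medium and the other in full medium, with 2 libraries each and about 100000 cells per library. The cells carried no other stated treatment or alteration, the labels do not say whether libraries of a medium came from separate cultures, and no RNA was measured. The 6 spans were selected on their −log10 p in both cystine-restricted lists and on the absence of a peak from both full-medium lists. Their difference between media is therefore a description with no test, and that of the regions around them, taken from the same contrast, is given in the same way.

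ATF3 is a basic leucine zipper factor induced by amino acid shortage, oxidants and other stresses, and it binds AP-1 and CRE-like DNA sites as a dimer with itself or with related factors. The genes named for the regions belong to no common pathway. UNC5B is a netrin receptor of axon and vessel guidance, P2RX7 an ATP-gated cation channel that drives inflammasome activation in macrophages, and TREM1 a receptor of myeloid cells that amplifies inflammatory signalling. MYH4 encodes a fast myosin heavy chain of skeletal muscle, SH3BGR a small glutamate-rich protein named for binding SH3 domains, and KIF13B a kinesin that carries cargo along microtubules. The gene names come from the choice of the regions. No annotation of hg19, the build of the peaks, was used, so distances to start sites, and whether a region lies in an intron or at a promoter, were not analysed here. In the RefSeq gene order of GRCh38.p14 the nearest protein-coding genes on either side are LCA5L and B3GALT5 for SH3BGR, PCBD1 and SLC29A3 for UNC5B, MYH8 and MYH1 for MYH4, OASL and P2RX4 for P2RX7, TREML4 and NCR2 for TREM1, and HMBOX1 and DUSP4 for KIF13B. MYH4 thus lies among other skeletal muscle myosins, and P2RX7 beside the gene of another ATP-gated channel.

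Promoter sequences were found in RefSeq (GRCh38.p14) for P2RX7, TREM1 and MYH4. The 250 bases before each start were searched on both strands for the AP-1 site TGACTCA, the CRE TGACGTCA and the CARE TGATGCAA, and none of the 3 promoters holds any of them. Among 35116 promoters of the same length, 4.20% hold the AP-1 site, 1.65% the CRE and 0.772% the CARE, and none of these motifs contains another, although the AP-1 site and the CRE share their first letters, TGAC. The P2RX7 and TREM1 promoters each have 1 stretch that matches the CRE in 7 of 8 letters, as 10.5% of promoters do or better, and MYH4 matches in 5 at best. Near matches were not limited to the CRE: TREM1 also matches the CARE in 7 of 8 letters, as 12.9% of promoters do or better, and the AP-1 site in 6 of 7, as 40.5% do. MYH4 matches the CARE in 6 of 8 letters (71.6% of promoters) and the AP-1 site in 5 of 7 (97.3%), and P2RX7 matches them in 5 of 8 (99.6%) and 5 of 7 (97.3%). A match is a description of letters and no site, and no match says nothing of the factor. P2RX7 and TREM1 are printed to show these letters, a choice made after the match was seen, 5′ to 3′ on the strand of the gene, with the stretch closest to the CRE in capitals. P2RX7 lies on the plus strand at chr12:121132626-121132875 and TREM1 on the minus strand at chr6:41286683-41286932, in GRCh38.p14. These positions were not converted to hg19, so their numbers cannot be compared directly with those of the peaks. Whether a peak covers either promoter was not analysed here.
P2RX7: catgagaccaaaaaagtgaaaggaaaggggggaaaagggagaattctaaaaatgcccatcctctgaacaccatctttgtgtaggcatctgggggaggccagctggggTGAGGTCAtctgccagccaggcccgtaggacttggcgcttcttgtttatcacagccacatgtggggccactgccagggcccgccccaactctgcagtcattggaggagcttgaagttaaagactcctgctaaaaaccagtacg
TREM1: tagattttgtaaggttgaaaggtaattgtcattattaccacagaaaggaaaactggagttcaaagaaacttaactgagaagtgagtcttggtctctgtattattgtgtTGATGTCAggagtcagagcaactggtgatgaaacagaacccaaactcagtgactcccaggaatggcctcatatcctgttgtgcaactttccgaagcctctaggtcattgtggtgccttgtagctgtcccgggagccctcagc

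A peak list holds no read counts, but the fold and the −log10 p that MACS2 gives each peak together fix a whole-number summit pileup (overlapping tags at the highest point) and the local background expected there. The genome background, the lowest in a list, follows the depth of a library and stood at 1.30 tags in cystine-restricted replicate 1, 1.08 in replicate 2, 1.11 in full-medium replicate 1 and 1.32 in replicate 2, so the deepest library by this measure was one of full medium. Heights below are summit pileups divided by the genome background of the same library. The folds are the authors' own, from a single list each.

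The 6 spans rose far above background in both cystine-restricted libraries and had no listed peak in either full-medium library. The region of SH3BGR, chromosome 21 from 40823836 to 40825120 (hg19, as all positions of peaks here), is the widest of the 6 at 1285 bp. Its summit pileups were 78 and 62 tags in cystine-restricted replicates 1 and 2, which are heights of 60.1 and 57.2, and the deposited folds were 12.06 and 12.05. At UNC5B, chromosome 10 from 73025781 to 73026796, pileups of 72 and 62 tags gave heights of 55.5 and 57.2. The libraries thus differed little at either region, with height ratios of replicate 1 to replicate 2 of 1.05 at SH3BGR and 0.970 at UNC5B.

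At MYH4, chromosome 17 from 10350374 to 10351176, pileups were 69 and 51 tags and heights 53.2 and 47.0 in cystine-restricted replicates 1 and 2. Its folds of 14.97 and 13.94 were the highest of the 6 regions, over a local background of 3.67 and 2.73 tags. At SH3BGR, with more tags at the summit, the local background was 5.55 and 4.23 tags. At P2RX7, chromosome 12 from 121581749 to 121582730, pileups of 53 and 46 tags gave heights of 40.8 and 42.4. P2RX7 had the lowest folds, 9.76 and 9.36, over a local background of 4.53 and 4.02 tags.

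TREM1 had the largest gap between libraries of the 6 regions. The region, chromosome 6 from 41254131 to 41254997, had 72 and 41 tags in cystine-restricted replicates 1 and 2, heights of 55.5 and 37.8 and a ratio of 1.47. KIF13B, chromosome 8 from 28982660 to 28983449, was the shortest and the most evenly matched, with 43 and 36 tags and heights of 33.13 and 33.21. The mean heights were 58.7 ± 2.1 at SH3BGR, 56.3 ± 1.2 at UNC5B, 50.1 ± 4.3 at MYH4, 46.7 ± 12.5 at TREM1, 41.6 ± 1.1 at P2RX7 and 33.17 ± 0.055 at KIF13B (SD, n = 2 each). In this order SH3BGR and UNC5B meet at 57.2, and TREM1 meets UNC5B at 55.5 and overlaps both MYH4 and P2RX7. The libraries of UNC5B and MYH4, and those of P2RX7 and KIF13B, do not overlap.

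**Figure D1:**
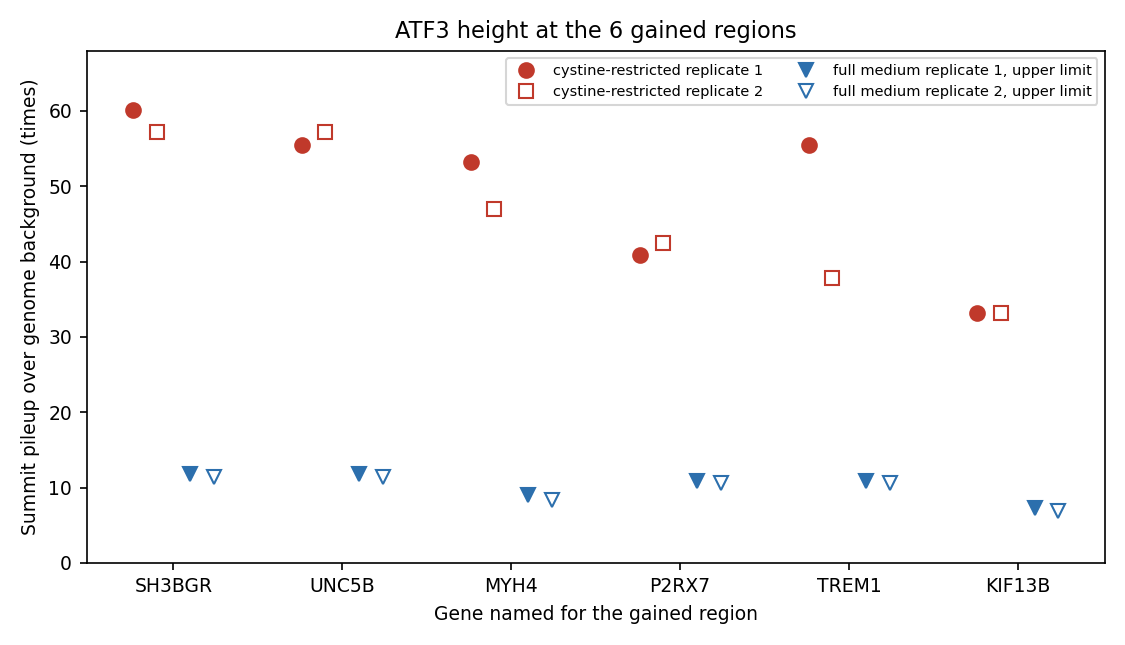
Summit pileup over genome background (y axis) at the 6 gained regions (x axis), with a point for each cystine-restricted library and, as triangles, the highest value that would still be unlisted in each full-medium library at the relative local background seen under cystine restriction. Cystine-restricted points lie between 33.1 and 60.1, and the full-medium limits between 6.83 and 11.75.

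An unlisted peak is not a height of 0, and the caller's threshold sets how high the signal in full medium could have been. Had the local background exceeded the genome background there as much as it did under cystine restriction, full-medium pileups of up to 13 and 15 tags in replicates 1 and 2 would have gone unlisted at SH3BGR and UNC5B, 12 and 14 at P2RX7 and TREM1, 10 and 11 at MYH4 and 8 and 9 at KIF13B. With these limits the lower cystine-restricted height was at least 5.21-fold the higher full-medium limit at MYH4, 4.87-fold at SH3BGR, 4.72-fold at UNC5B, 4.58-fold at KIF13B, 3.77-fold at P2RX7 and 3.49-fold at TREM1. If full medium had only the genome background there, no more than 6 tags could have gone unlisted, and the bounds would be 8.68-fold at MYH4, 10.55-fold at SH3BGR, 10.23-fold at UNC5B, 6.11-fold at KIF13B, 7.53-fold at P2RX7 and 6.98-fold at TREM1. The local background in full medium is not listed where there is no peak, and a stretch narrower than the shortest listed peak, 150 bp, would not be covered by these limits.

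Such heights were common in the cystine-restricted lists, and the counts below describe the choice of the spans. It used the −log10 p, which rises with the height, and the absence from full medium. The 6 spans ranked between 1107 and 2595 of 33838 peaks by −log10 p in replicate 1 and between 1086 and 2360 of 29607 in replicate 2. Of the 3624 regions that were at least as high in both cystine-restricted libraries as the lowest of these values, 33.1, 3420 or 94.4% had a peak in all 4 libraries, 133 in just 1 full-medium library, and 71 or 1.96% in neither. Among 1833 regions common to all libraries whose cystine-restricted heights fell within the range of the spans, 33.1 to 60.1, the median was 43.2 under cystine restriction and 27.5 in full medium. The median log2 difference, cystine-restricted minus full medium, was 0.66 there (interquartile range 0.46 to 0.92), a ratio of 1.58, and the highest was 2.41. These regions are listed in full medium by definition and the 6 spans are not, so the values are given as context and not as a comparison with the spans.

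**Figure D2:**
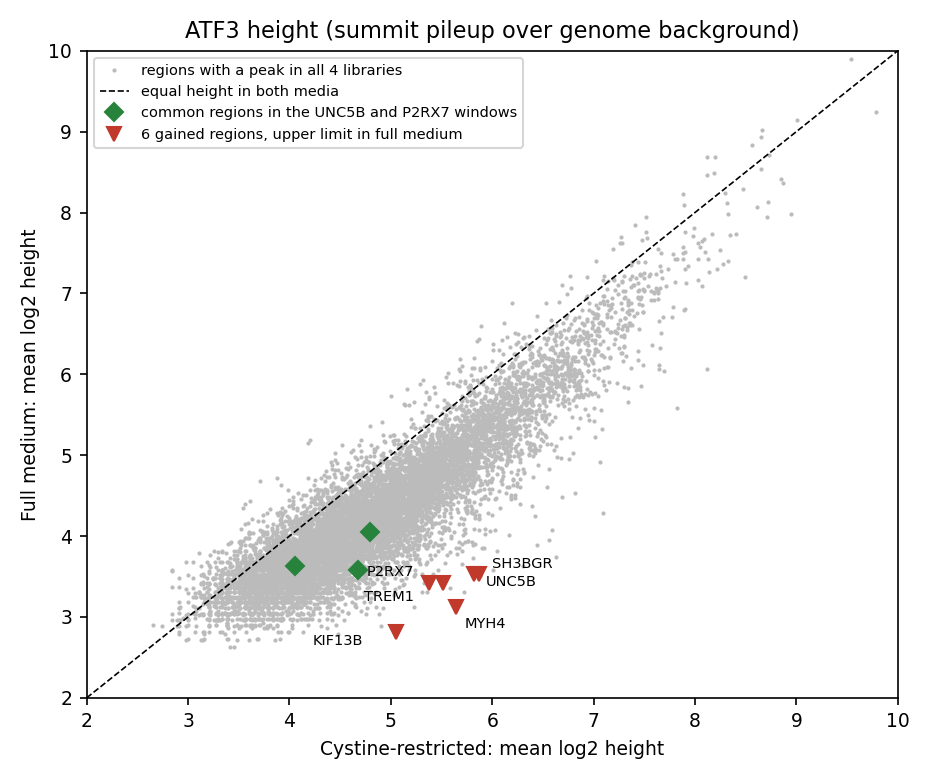
Mean log2 height under cystine restriction (x axis) and in full medium (y axis) for 10331 regions listed in all 4 libraries (grey), the 3 such regions in the UNC5B and P2RX7 windows (diamonds) and the 6 spans at their full-medium limits (triangles). The triangles mark upper limits of spans chosen for having no full-medium peak, while each grey region has a peak in both full-medium libraries, so their place at or under the lower edge of the cloud follows from the choice.

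The order of the 6 spans depends on what is ranked. Among the 5685 regions gained, meaning those listed in cystine-restricted replicates 1 and 2 but absent from both full-medium lists, SH3BGR, UNC5B, MYH4, P2RX7, TREM1 and KIF13B are places 1, 2, 3, 6, 7 and 9 by the lower of the rank percentiles of −log10 p. By the lower height they are places 4, 8, 16, 30, 36 and 67, and by the lower deposited fold 2, 7, 1, 24, 12 and 3. The regions at places 4, 5, 8 and 10 by −log10 p lie elsewhere, on chromosomes 1, 21, 7 and 2. With a reciprocal overlap of 50%, all 6 spans remained gained. They also did when the lists were cut at a −log10 q of 5 or to their 17447 top peaks. The choice of the spans fixed the outcome of both cuts, which are therefore no check. In the cystine-restricted lists the spans had a −log10 q of 28.04 to 57.88 and ranks of 1086 to 2595. Neither cut can add a peak to a full-medium list.

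The place of the summit was not used in choosing the regions, and it agreed closely between the cystine-restricted libraries. Summits of replicates 1 and 2 fell on the same base at MYH4 and TREM1, 1 bp apart at KIF13B, 7 bp at SH3BGR, 8 bp at UNC5B and 35 bp at P2RX7. The median of the 6 was 4 bp. It was 47 bp (interquartile range 14 to 165) over all 5685 gained regions, 43.8% of which had summits within 35 bp, and 11 bp (5 to 33) over the 71 gained regions of at least the same height, 77.5% of which did. Regions in all 4 libraries of at least that height also had a median of 11 bp (4 to 40, n = 3420). The limit of 35 bp is the largest distance among the 6 spans, so all 6 meet it by construction. The shares of 43.8% and 77.5% are therefore no comparison with them. TREM1, whose heights differed most between the libraries, is thus among those whose summits coincide. No test was run, as height goes both with the −log10 p that chose the regions and with the agreement of summits.

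**Figure D3:**
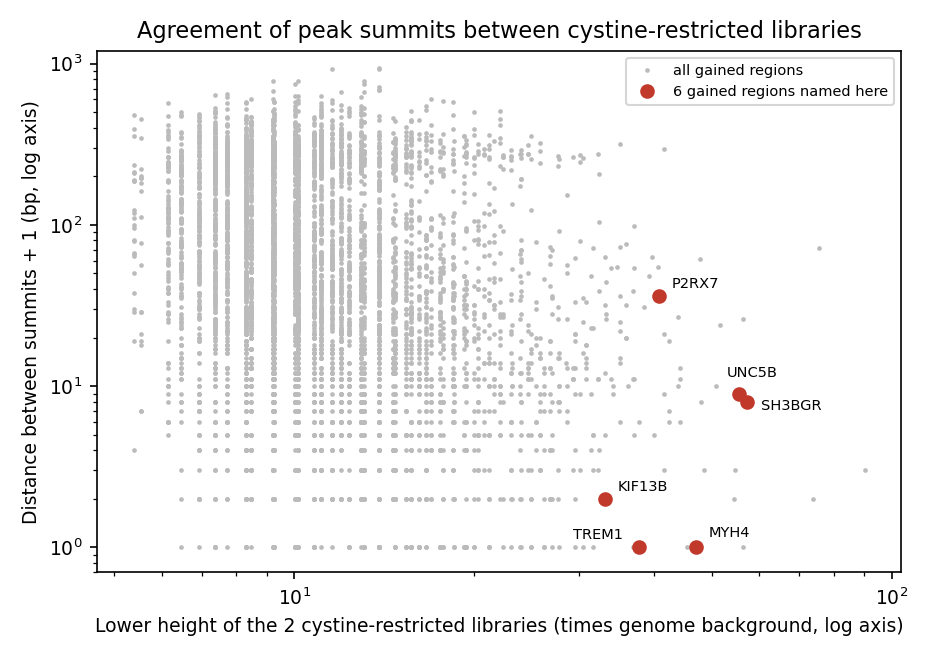
Distance between the summits of cystine-restricted replicates 1 and 2, plus 1 bp (y axis, log), against the lower of the heights in these libraries (x axis, log) for 5685 gained regions (grey) and the 6 named ones (red). The named regions lie at 0 to 35 bp, where taller gained regions tend to fall.

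Apart from the spans, the windows held 14 regions. Of these, 2 were gained, 3 were present in all 4 libraries, 5 were listed only in cystine-restricted replicate 1, 3 only in cystine-restricted replicate 2 and 1 only in full-medium replicate 2, and 0 were lost (listed in both full-medium libraries and neither cystine-restricted one). Over all 44826 regions 12.7% were gained and 0.386% lost, so 2 of 14, or 14.3%, is near the background. Regions listed only in cystine-restricted replicate 1 made up 35.7% of the neighbours and 21.8% of all regions, those only in replicate 2 21.4% and 14.6%, those only in full-medium replicate 2 7.14% and 5.89%, and those in all 4 libraries 21.4% and 23.05%. With 14 neighbours a single region is 7.14%, and these shares were not tested. Of the 5 neighbours listed in both cystine-restricted libraries 2 were gained, against 27.6% of 20633 such regions in the series, which is too few to compare. Leaving out a library loosens the definition: the windows with their spans held 8 gained regions, 12 without cystine-restricted replicate 1, 13 without cystine-restricted replicate 2, and 8 without either full-medium library.

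In the 6 windows there were 16 peaks in cystine-restricted replicate 1 and 15 in replicate 2, against 3 in full-medium replicate 1 and 4 in replicate 2. The ratio of the means was 4.43 with the spans, which the choice of regions raises. Without them it was 2.71, from counts of 10 and 9 under cystine restriction and 3 and 4 in full medium. The windows differed in this: without spans the means were 5.5 against 2 at P2RX7, 1 against 1 at UNC5B and 0.5 against 0.5 at TREM1. MYH4 had 2 and SH3BGR 0.5 under cystine restriction with no full-medium peak, and KIF13B had no peak. Over all chromosomes the ratio was 1.73. With windows of 25 kb, which hold 1 full-medium peak per library at P2RX7, it was 10 with the spans. Libraries of the media did not overlap in these counts, but 2 against 2 allow no exact permutation p under 0.33, and the windows were picked on the same contrast, so no test was made.

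**Figure D4:**
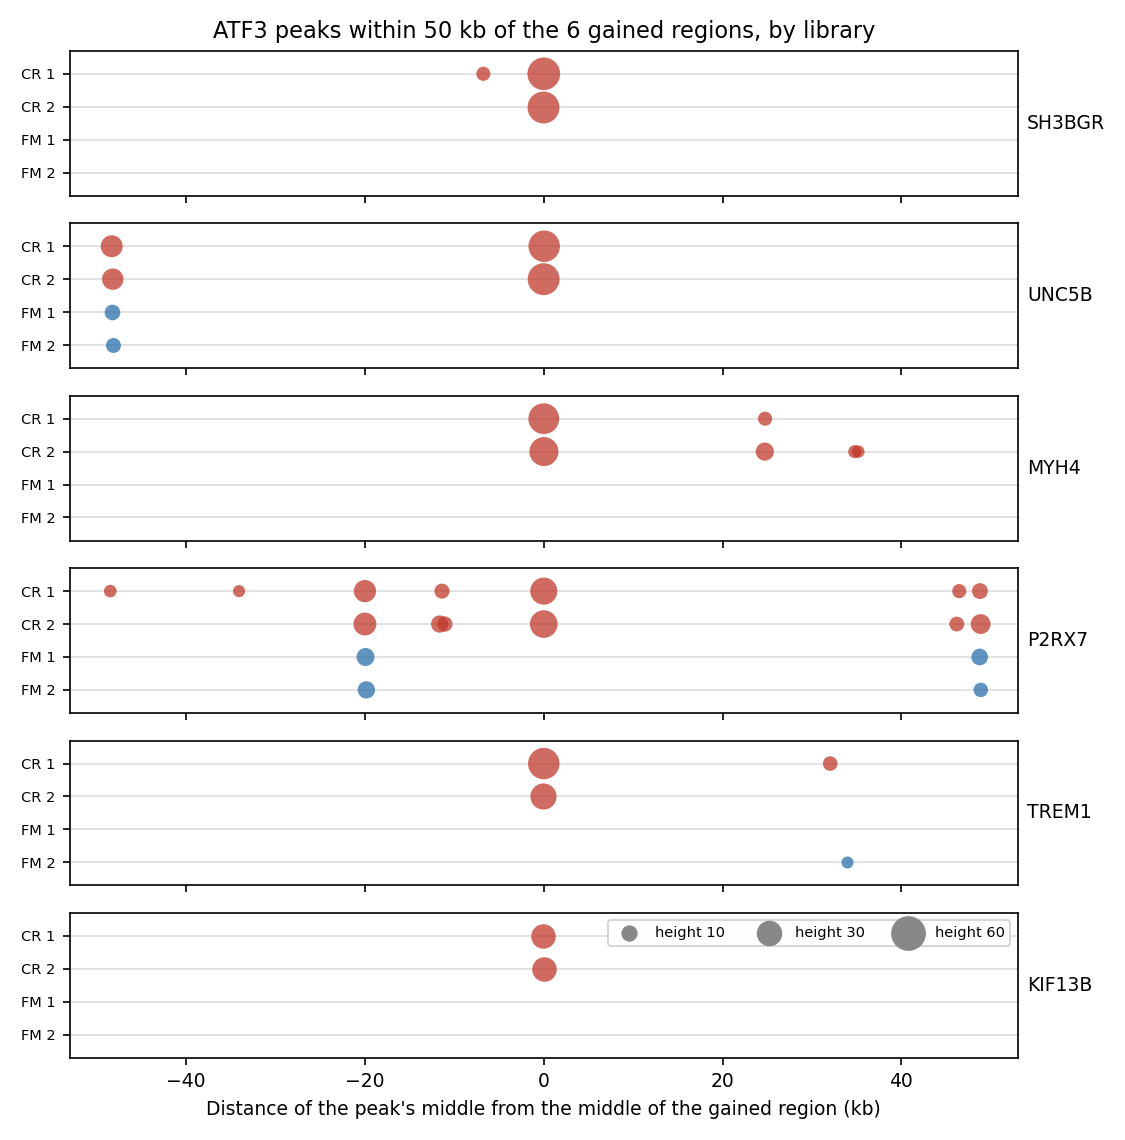
Peaks of each library (CR, cystine-restricted, red, and FM, full medium, blue) within 50 kb of the 6 gained regions, by distance from the middle of the region in kb (x axis), with the area of a point growing with the height of the peak. Full-medium peaks appear only in the UNC5B, P2RX7 and TREM1 windows.

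The P2RX7 window was the fullest, with 7 regions beside the span. On the lower-coordinate side, 10.5 kb away, a second region was gained, from 121570483 to 121571269. Its heights were 11.6 and 15.7 in cystine-restricted replicates 1 and 2, and in replicate 2 it was listed as 2 separate peaks. Further out on that side, 19.1 kb away, lay the tallest common region of any window, from 121561896 to 121562683. Replicates 1 and 2 had 35 and 31 tags under cystine restriction, against 19 and 21 tags in full medium, which are heights of 27.0 and 28.6 against 17.2 and 15.9. Each cystine-restricted library was above each full-medium one, and the log2 difference was 0.75, a ratio of 1.68. Of all common regions, 71.7% had a smaller difference.

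On the other side of P2RX7, 48.0 kb away, the libraries of the media overlapped. The common region from 121630691 to 121631304 had heights of 13.1 and 21.2 in replicates 1 and 2 under cystine restriction, and of 14.5 and 10.6 in those of full medium. Its log2 difference of 0.43 is the mean of single comparisons that ran from −0.14 to 0.998. The 4 other regions of the window were weak and listed in 1 cystine-restricted library each, with heights of 6.93 to 11.07. A pair of them, in different libraries, lay 45.6 and 45.9 kb from the span without touching.

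UNC5B had 1 neighbour, 47.3 kb to the lower-coordinate side, from 72977685 to 72978467. Its pileups in replicates 1 and 2 were 34 and 27 tags under cystine restriction, against 14 and 15 tags in full medium, and its heights 26.2 and 24.9 against 12.65 and 11.38. The media did not overlap, the log2 difference was 1.09 (0.98 to 1.20 in the single comparisons), a ratio of 2.13, and 91.9% of common regions had a smaller one. The gap between libraries of a medium, 0.07 under cystine restriction and 0.15 in full medium on the log2 scale, was much smaller than this. The median over the 3 common regions of the windows was 0.75, against 0.53 (interquartile range 0.29 to 0.78) over all 10331. It was 0.31 with pileups set over the local background and 0.40 with the deposited folds. No median over all common regions is given on these scales, so neither value can be set against 0.53.

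Around MYH4 there was no full-medium peak within 50 kb, the nearest being 71.4 kb away. A second gained region lay 24.1 kb to the higher-coordinate side, from 10375294 to 10375743, with heights of 10.02 and 17.53 in cystine-restricted replicates 1 and 2, an unequal pair. A pair of weak regions, 34.3 and 34.7 kb away, was listed in cystine-restricted replicate 2 alone, with heights of 8.30 and 7.38. SH3BGR had a single neighbour 5.7 kb away, from 40817335 to 40818104, with a height of 10.02 in cystine-restricted replicate 1 and no peak in replicate 2. No full-medium peak was listed within 65.9 kb of it.

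Among the 6 windows, that of TREM1 held the only full-medium peak with no overlapping peak under cystine restriction, a region of 150 bp from 41288425 to 41288574 with 9 tags and a height of 6.83 in full-medium replicate 2. Near it, from 41286430 to 41286764, cystine-restricted replicate 1 had a peak with a height of 10.8, and they lay 33.4 and 31.4 kb from the span. KIF13B was alone, with no other region of any library within 50 kb, the nearest at 83.6 kb and the nearest full-medium peak at 233.9 kb. Of the gained regions of the series, 12.4% likewise had no neighbour within 50 kb.

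The 6 spans were set beside all gained regions by their number of neighbours, which was not tested. They had 0 to 7 neighbours within 50 kb, with a median of 1.5, against 3 (interquartile range 1 to 5) over all gained regions and 8 (3.5 to 11) over the 71 of at least the same height. SH3BGR, UNC5B, MYH4 and TREM1 lay within the interquartile range over all gained regions, KIF13B under it and P2RX7 above it. Whether the choice by −log10 p bears on the contrast with the 71 tall regions was not tested. The nearest full-medium peak lay at 19.1 kb for P2RX7 and at 233.9 kb for KIF13B, the ends of the range. The median was 56.6 kb, against 20.2 kb (6.38 to 60.9) over all gained regions. It lay within that interquartile range, with SH3BGR, MYH4 and KIF13B above the range. The local background at the spans was 1.94 to 4.28 times the genome background, with a median of 3.41, against 8.85 (4.05 to 13.3) at the 71 tall gained regions and 1.51 (1.16 to 2.24) at all of them. The −log10 p that chose the spans falls as the local background rises, so this contrast with other tall gained regions is in part set by the choice. Among the windows, the farthest region inside the 50 kb limit lay at 48.0 kb, and the nearest outside it at 63.1 kb, a peak of cystine-restricted replicate 2 beside SH3BGR.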

How the data were processed

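ATF3 CUT&Tag was done in SW480 cells in 2 media, with 2 libraries each. The build hg19 and the tools BWA (0.7.17), MACS2 (2.2.7.1), bcl2fastq (2.17) and fastp (0.19.7) are named, without roles, per the submitters' processing notes. Options of the caller are not stated in the sources used. Peaks were deposited for each library, with a fold (ratio of summit pileup to local background, each plus 1), a −log10 p, a −log10 q of at least 1.30 and a whole-number score of 10 times the −log10 q. No library without the antibody was used.

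Whole-number pileups were recovered from the deposited folds and −log10 p, within 0.1% of the listed −log10 p for 100% of peaks in each library. Peaks on chromosomes 1 to 22 and X that shared at least 1 bp were merged, and regions within 50 kb of the 6 spans were taken. A full-medium limit is the largest pileup whose −log10 p stays under the lowest listed in that library, 3.88 or 3.83. The recovery and the merging were tested on simulated data. The members, lists and comparisons were chosen with earlier results of these data known. The rule for named regions took the 6 spans, the tallest common region of a window and its gained or lost regions in full. Same-numbered libraries were not paired by any label. Motifs were fixed as exact letters, and counting mismatches was added after the data were seen. Distances to start sites and gene families need an hg19 annotation and were not analysed here. Alternatives are given in the closing section. Python 3.11.15, numpy 2.4.6, scipy 1.17.1, pandas 2.3.3 and matplotlib 3.10.9 were used.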

Additional observations from a re-analysis of the deposited data

How the results depend on the processing

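Spans listed only under cystine restriction raise the ratio of cystine-restricted to full-medium peak numbers in the windows in every run that keeps them. This ratio, 4.43 as deposited, was above 1 in each alternative run, which is in part set by the choice. It was 3.14 with equal numbers of top peaks, 10 and 3.33 with windows of 25 and 100 kb, 2.71 with the 6 spans left out (added after the data were seen), 3.88 to 5.17 with 1 library left out, and 4.47 as a geometric mean of the ratios within pairs 1 and 2 (replicate block). A reciprocal overlap does not alter single lists and gives it no value. The 8 gained regions of the windows became 8 to 13 with 1 library left out, 13 and 12 within pairs 1 and 2 (replicate block), where fewer libraries are required, and 2 without the spans, by construction. The other settings gave 7 to 9. The log2 difference at common regions of the windows, 0.75, was above 0 throughout, at 0.92 with equal numbers of top peaks, which leave 2 of the 3 regions, 0.31 over the local background, 0.40 with deposited folds, 0.65 and 0.998 within pairs 1 and 2 (replicate block) and 0.69 to 0.80 with 1 library left out. Beyond these points the cause was not tested. No label pairs the samples by number. Libraries with the same number deviated from the mean of their medium with a correlation of 0.01 over 10331 regions. With 2 libraries per medium this cannot show whether they shared a culture or a batch. The lower bounds on the ratio at the 6 spans were 3.49 to 5.88 with 1 library left out, which was added after the data were seen, and 6.11 to 10.55 at the genome background. The weakest listed peaks rested on few tags in both media, and whether depth sets this was not tested. No listed pileup was under 6 tags in cystine-restricted replicate 2 or under 7 in the other libraries of either medium.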
